A study of Mus musculus with 19 samples.

Results

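The calcium/calmodulin-dependent (CaM) kinases are described here by 8 genes, chosen by name from the 14443 genes with deposited counts: Camk2a, Camk2b, Camk2d and Camk2g, which encode the subunits of CaMKII; Camk4 and Camk1, which encode CaMKIV and CaMKI; and Camkk1 and Camkk2, which encode their activating kinases. All 8 had counts in all 19 libraries. Each library came from the locus coeruleus, the noradrenergic nucleus of the brainstem, dissected from frozen mouse brain sections. The 4 groups were CnB1KO_SD6 (ABC-CnB1KO mice after 6 h of sleep deprivation, n = 5), CnB1KO_S6 (ABC-CnB1KO mice after normal sleep, n = 5), WT_SD6 (ABC-Ctrl mice after 6 h of sleep deprivation, n = 5) and WT_S6 (ABC-Ctrl mice after normal sleep, n = 4). CnB1 is the regulatory subunit of the phosphatase calcineurin. The labels give the same AAV-hSyn-Cre injection, 4 weeks before dissection, for both genotypes. The hSyn promoter expresses Cre in neurons, so glia in the dissected tissue were not its targets. The sources used here do not state sex, age or the injected site.

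CaM kinases are serine/threonine kinases that calcium-loaded calmodulin switches on. CaMKII forms large holoenzymes that phosphorylate themselves and stay active after calcium has fallen, and in forebrain neurons they are central to synaptic plasticity. CaMKI and CaMKIV work in a cascade, in which a CaM kinase kinase phosphorylates them, and CaMKIV acts in the nucleus on CREB. Calcineurin is activated by the same calcium/calmodulin signal and, as a phosphatase, removes phosphate from proteins. In the adult mouse brain Camk4 is known as abundant in cerebellar granule cells, which lie close to the locus coeruleus.

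Promoter windows of 300 bases (250 before the RefSeq start of the gene and 50 after it, GRCm38.p6) are shown for 3 of the genes. The window of Camk2d lies wholly after the start of that gene in the GENCODE M21 annotation, 126596302, which is given below. Camkk2 and Camk2d are shown because their levels varied together across libraries, as given further on. Camkk1 is shown as the paralog of Camkk2. Capitals mark a match to TGACG (the core of the cAMP response element) or to CCAAT (the box bound by NF-Y), on either strand.
Camkk2, chr5:122779361-122779660, minus strand: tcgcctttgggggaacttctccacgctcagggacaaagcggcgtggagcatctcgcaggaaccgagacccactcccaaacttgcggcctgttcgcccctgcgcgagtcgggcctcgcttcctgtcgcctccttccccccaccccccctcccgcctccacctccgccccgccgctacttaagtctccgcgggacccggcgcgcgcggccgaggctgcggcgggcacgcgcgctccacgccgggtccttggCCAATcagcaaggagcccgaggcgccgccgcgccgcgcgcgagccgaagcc
Camk2d, chr3:126596701-126597000, plus strand: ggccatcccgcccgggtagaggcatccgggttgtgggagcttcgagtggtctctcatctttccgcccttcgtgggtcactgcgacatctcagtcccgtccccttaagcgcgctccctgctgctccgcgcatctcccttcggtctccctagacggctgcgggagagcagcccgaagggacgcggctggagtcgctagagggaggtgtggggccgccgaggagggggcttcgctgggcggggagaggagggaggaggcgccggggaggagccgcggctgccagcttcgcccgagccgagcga
Camkk1, chr11:73018738-73019037, plus strand: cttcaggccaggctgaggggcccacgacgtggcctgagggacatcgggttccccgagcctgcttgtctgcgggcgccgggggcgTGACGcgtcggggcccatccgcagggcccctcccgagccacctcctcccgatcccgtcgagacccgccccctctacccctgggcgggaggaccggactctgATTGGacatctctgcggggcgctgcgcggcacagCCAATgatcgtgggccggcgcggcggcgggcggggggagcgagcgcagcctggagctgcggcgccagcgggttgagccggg
The window of Camkk2 held 1 CCAAT and no TGACG, that of Camk2d held neither, and that of Camkk1 held 1 TGACG and 2 CCAAT boxes, 1 of them read as ATTGG. Of 32851 RefSeq promoter windows of the same length, 20.8% held TGACG and 37.4% held CCAAT. GC content was 73.3% in Camkk2, 70.3% in Camk2d and 75.3% in Camkk1, against a median of 52.7% over all these windows.

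On the GRCm38 build, with the GENCODE M21 annotation, Camk2a lies at chromosome 18, 60925618 to 60988152, Camk2b at chromosome 11, 5969644 to 6066362, Camk2d at chromosome 3, 126596302 to 126846326, and Camk2g at chromosome 14, 20734875 to 20794088. Camk4 lies at chromosome 18, 32934931 to 33191228, and Camk1 at chromosome 6, 113334124 to 113343984. Camkk1 lies at chromosome 11, 73019008 to 73042073, and Camkk2 at chromosome 5, 122731170 to 122779409. Exons of Camk1 overlap those of Ogg1 on the opposite strand, and exons of Camk4 overlap those of the antisense gene 2310026I22Rik. The library kit keeps no strand, so reads in these overlaps cannot be assigned to one gene, and the counts of Camk1 and Camk4 are uncertain to that extent.

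Total counts per library ran between 3887298 and 7903253, and the shallowest was library 13 of CnB1KO_S6. Ppp3r1, which encodes CnB1, averaged 132 ± 6.73 CPM (each library's count scaled to a common total, with TMM factors) in CnB1KO_SD6, 129 ± 13.2 in CnB1KO_S6, 152 ± 10.9 in WT_SD6 and 161 ± 4.08 in WT_S6 (SD). Its change with the genotype, averaged over both sleep states, was -0.26 ± 0.04 on the log2 scale (SE, edgeR adjusted p = 0.00758). The noradrenergic markers, among them Dbh, Th and Slc6a2, were measured in each library, with a mean log2 CPM between 5.75 and 7.27. The mean log2 CPM of 8 cerebellar granule cell markers varied much more, between 2.77 in library 20 of CnB1KO_SD6 and 7.54 in library 8 of WT_SD6, which also had the lowest noradrenergic value. One of these markers, Gabra6, averaged 46.4 CPM in CnB1KO_SD6, 46.5 in CnB1KO_S6, 98.3 in WT_SD6 and 79.3 in WT_S6. In bulk tissue, fewer cells of a type and less RNA per cell cannot be told apart.

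The CaMKII genes of the β and γ subunits had the highest levels of the family. Per length, in deposited FPKM, Camk2b averaged 80.1 ± 5.15 and Camk2g 76.3 ± 6.8 over the 19 libraries (SD). Camk2b was above Camk2g in 12 of the 19, so the order of this pair was not stable. Camk2d (δ) followed at 45.3 ± 4.34 FPKM, and every library of Camk2g lay above every library of Camk2d. Camk1 averaged 37.6 ± 2.34 FPKM and was below Camk2d in all 19 libraries, although the ranges of the pair overlapped. Camk2a (α), the best-known forebrain subunit, followed Camk1, at 33.0 ± 3.74 FPKM. The kinase kinases Camkk1 and Camkk2 averaged 29.9 ± 1.74 and 27.3 ± 5.18 FPKM, with Camkk1 higher in 13 of 19 libraries. Camk4 was lowest at 19 ± 8.25 FPKM, with values between 10.6 and 38.7, and was below Camkk2 in 18 of 19 libraries. These levels were set across 4 deposited tables, and the order within a library does not depend on how the tables compare. The order does depend on the length used. Mean counts per kilobase of annotated exon were 256.8 for Camk2g, 225.9 for Camk2b, 204 for Camkk1 and 153.6 for Camk2a. They were 119.5 for Camk4, 84.35 for Camkk2, 72.68 for Camk1 and 60.15 for Camk2d, which was lowest by that measure.

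**Figure D1:**
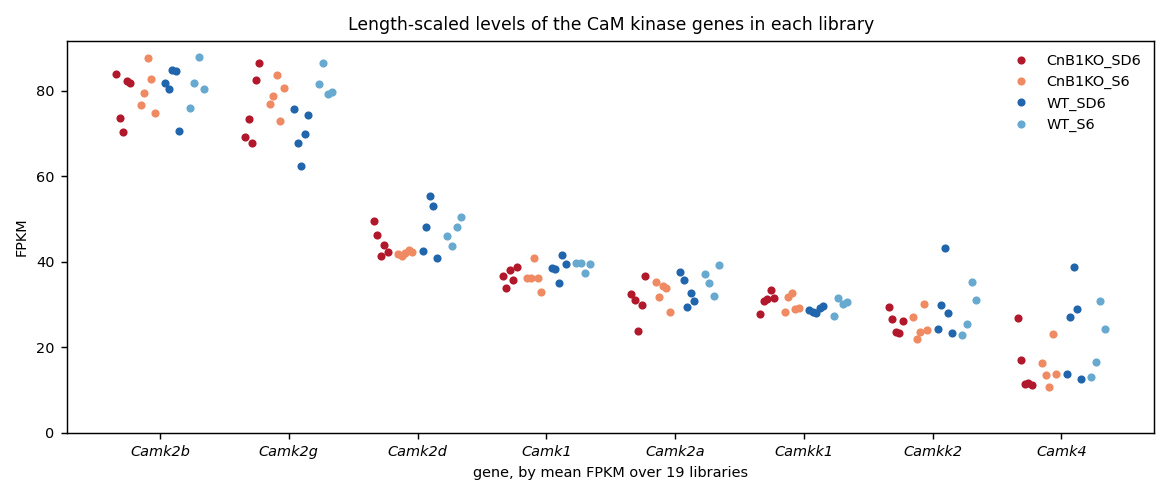
Deposited FPKM (vertical axis, linear from 0) of each CaM kinase gene in each of the 19 libraries, coloured by group; genes run in order of their mean. Camk2b and Camk2g lie together at 62.5 to 87.9 FPKM, above the other 6 genes, and Camk4 has the widest relative spread, between 10.6 and 38.7.

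Of the summed FPKM of the 4 CaMKII genes in a library, Camk2b made up 34.1 ± 1.38%, Camk2g 32.5 ± 2.40%, Camk2d 19.3 ± 1.80% and Camk2a 14 ± 1.2% (SD, n = 19). These shares depend on the length used in the same way. The sum itself was 203 to 250.1 FPKM. The ratio of Camk2a to Camk2b FPKM was 0.391 ± 0.044 in CnB1KO_SD6, 0.407 ± 0.032 in CnB1KO_S6, 0.415 ± 0.047 in WT_SD6 and 0.442 ± 0.060 in WT_S6 (SD), with ranges that overlapped in all 4 groups. The share of Camk2g was 33.0 ± 2.2% in CnB1KO_SD6, 33.6 ± 1.55% in CnB1KO_S6, 30.3 ± 2.87% in WT_SD6 and 33.2 ± 1.53% in WT_S6. The WT_SD6 libraries reached down to 26.9% and up to 34.3%, so they overlapped the other groups.

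Sleep deprivation changed none of the 8 genes past the threshold in either genotype. In CnB1KO mice, 0 of 8 passed (edgeR adjusted p under 0.05), against 0.692% of all genes, and 0 of 8 had an unadjusted p under 0.05, against 9.69% of all genes. In WT mice 0 of 8 passed, against 1.14% of all genes, and 1 of 8, Camk2g, had an unadjusted p under 0.05, against 11.6%. Averaged over genotypes, 0 of 8 passed, against 4.69% of all genes, and Camk2g alone had an unadjusted p under 0.05, against 17.2%. The median log2 change of the 8 genes was -0.0012 in CnB1KO and -0.035 in WT, and that of all genes was -0.0055 in CnB1KO and 0.0010 in WT.

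Camk2g, whose γ subunit is also found in many tissues outside the brain, came closest to a change with deprivation. In CnB1KO mice it had 241, 252, 241, 286 and 292 CPM after deprivation, against 265, 272, 314, 243 and 269.5 CPM after sleep. These CnB1KO libraries overlapped, as did those of the other 7 genes (the libraries were separate for 2.66% of all genes), and the log2 change was -0.05 (95% interval -0.19 to 0.09, edgeR adjusted p = 0.960). In WT mice it had 251, 233, 218, 241 and 243 CPM after deprivation, against 268, 278, 257 and 264 CPM after sleep. All 5 deprived WT libraries lay below all 4 slept ones, a separation that 5.21% of all genes showed in one direction or the other. The log2 change in WT was -0.17 (95% interval -0.32 to -0.02), which did not pass (edgeR adjusted p = 0.335; limma on log2(FPKM + 1) gave -0.22 with adjusted p = 0.226). The difference between the genotypes in this change was 0.12 on the log2 scale (95% interval -0.09 to 0.32, edgeR adjusted p = 0.9999), so no difference was detected. In the same WT libraries the mean log2 CPM of 9 oligodendrocyte markers was 6.86 to 7.10 after deprivation, against 7.18 to 7.38 after sleep, without overlap. Of these 9 markers, 2 passed in WT, Opalin with a log2 change of -1.28 (edgeR adjusted p = 0.000297) and Aspa with -0.68 (adjusted p = 0.0209), and the other 7 had -0.28 to -0.01. A fit with this marker mean as a covariate was run, but the mean separates the WT groups and holds genes that changed with deprivation. It therefore cannot tell oligodendrocyte content apart from deprivation in the Camk2g values. Over 30 alternatives the WT change of Camk2g was -0.22 to -0.0045 (adjusted p 0.0555 to 0.995) and passed in none. With the granule cell value as a covariate it was -0.18 (edgeR adjusted p = 0.0555). The change averaged over genotypes, -0.11 without a covariate (edgeR adjusted p = 0.239), became -0.13 with that covariate and passed (adjusted p = 0.0216). Over 29 alternatives the averaged change was -0.14 to 0.01 (adjusted p 0.0216 to 0.9435), and it passed in that 1 only.

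The other CaMKII genes did not pass. Camk2b averaged 319.7 ± 25.2 CPM in CnB1KO_SD6 and 322 ± 29.6 in CnB1KO_S6, and 329 ± 38.4 in WT_SD6 and 332 ± 15.8 in WT_S6 (SD). Its log2 change with deprivation was -0.01 in CnB1KO (95% interval -0.17 to 0.15) and -0.01 in WT (-0.18 to 0.16). Camk2d averaged 203 ± 12.5 CPM in CnB1KO_SD6 and 202 ± 6.41 in CnB1KO_S6, and 221 ± 29.6 in WT_SD6 and 224 ± 16.3 in WT_S6. The intervals of its log2 change were -0.14 to 0.17 in CnB1KO and -0.18 to 0.15 in WT. Camk2a averaged 170.0 ± 27.5 CPM in CnB1KO_SD6 and 178 ± 16 in CnB1KO_S6, and 182 ± 20.7 in WT_SD6 and 193 ± 12.4 in WT_S6. For Camk2a the intervals were -0.28 to 0.14 in CnB1KO and -0.30 to 0.14 in WT. For these 3 genes, fold changes above 1.123 or below 0.813 lay outside the intervals in both genotypes, and smaller changes could not be told from none.

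The cascade genes did not pass either. Camk1, which encodes the cytoplasmic CaMKI, averaged 66.1 ± 3.68 CPM in CnB1KO_SD6 and 66.6 ± 5.96 in CnB1KO_S6, and 69.1 ± 4.86 in WT_SD6 and 71.7 ± 2.87 in WT_S6. Camkk1 averaged 123 ± 8.48 CPM in CnB1KO_SD6 and 121 ± 10.2 in CnB1KO_S6, and 115 ± 2.64 in WT_SD6 and 119.7 ± 7.21 in WT_S6. Their log2 changes with deprivation lay between -0.06 and 0.02 in both genotypes. Camkk2, the kinase kinase that also activates AMPK, had 153, 141, 122, 126 and 138 CPM in CnB1KO_SD6, against 138, 118, 130.2, 154 and 125 CPM in CnB1KO_S6. In WT_SD6 it had 125, 158, 232, 151 and 121 CPM, against 117, 131, 188 and 162 CPM in WT_S6. The groups overlapped, and library 8 of WT_SD6 was the highest of all 19. Its log2 change was 0.03 in CnB1KO (95% interval -0.30 to 0.35) and 0.07 in WT (-0.27 to 0.41).

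**Figure D2:**
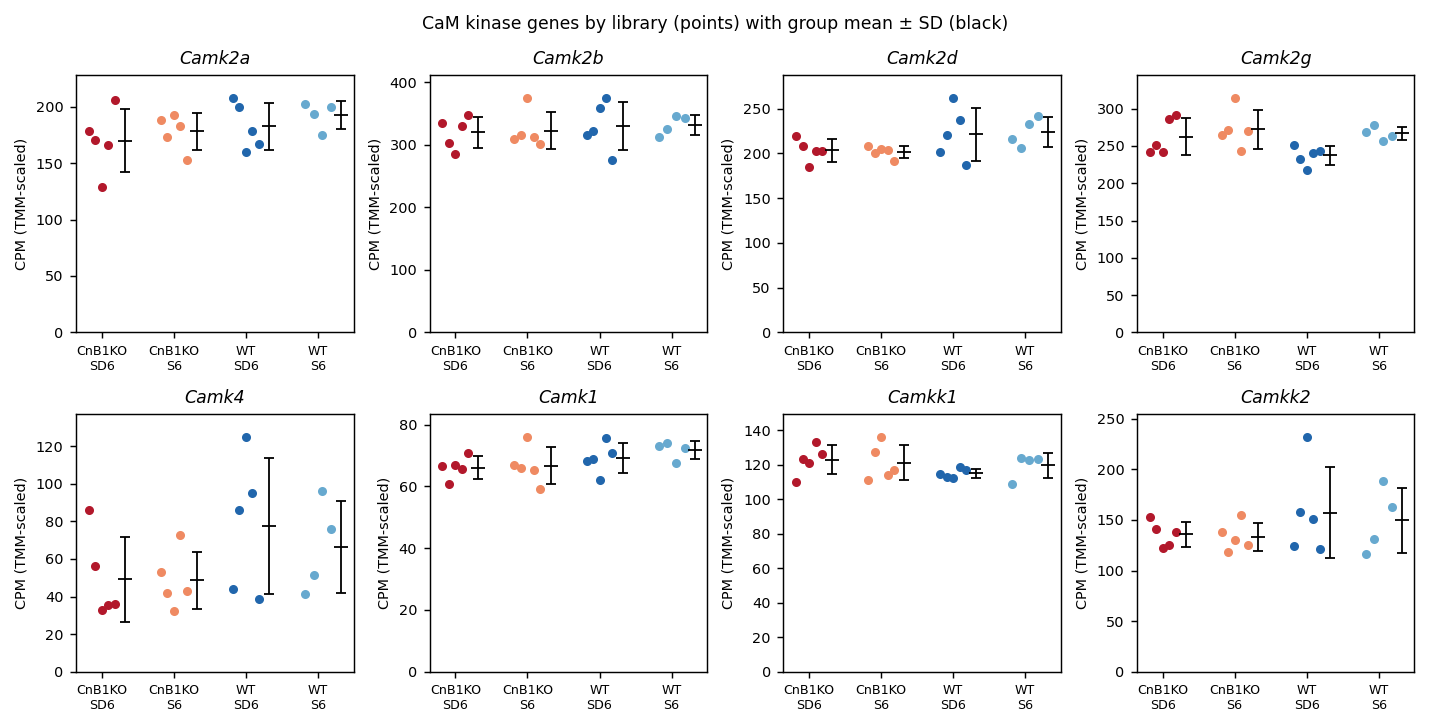
TMM-scaled CPM (vertical axes, linear from 0) of the 8 CaM kinase genes, with 1 point per library and the group mean ± SD in black (n = 5, WT_S6 n = 4). The 5 WT_SD6 points of Camk2g, 218 to 251 CPM, lie below the 4 WT_S6 points, 257 to 278 CPM; the Camk4 points spread between 32.5 and 125 CPM.

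Camk4 had the most variable level of the family. In CnB1KO_SD6 it had 86.2, 56.3, 32.9, 35.3 and 36.0 CPM, against 52.9, 42.1, 32.5, 72.8 and 42.7 CPM in CnB1KO_S6. In WT_SD6 it had 44.0, 86.2, 125, 94.9 and 38.5 CPM, against 41.6, 51.5, 96.4 and 76.0 CPM in WT_S6. Each group held both low and high libraries, and all groups overlapped. The SD of log2 CPM within groups was 0.587 for Camk4, against 0.259 for Camkk2 and 0.172 for Camk2a. The Camk4 value was higher than for 97.5% of the genes with a mean log2 CPM of at least 1. It was also higher than for 99.8% of the 500 genes nearest to Camk4 in level. For the other 5 genes it was 0.092 to 0.129. The log2 change of Camk4 with deprivation was 0.0052 in CnB1KO (95% interval -0.71 to 0.72) and 0.22 in WT (-0.51 to 0.94). Both falls and rises thus lay within the intervals, with fold changes of 0.61 to 1.65 in CnB1KO and 0.70 to 1.92 in WT.

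The CnB1 knockout changed none of the 8 genes past the threshold. After deprivation 0 of 8 passed (edgeR adjusted p under 0.05), against 0.132% of all genes, and 1 of 8, Camk2g, had an unadjusted p under 0.05, against 15.2% of all genes. After sleep 0 of 8 passed, against 0.0485% of all genes, and 0 of 8 had an unadjusted p under 0.05, against 10.1%. Averaged over both sleep states, 0 of 8 passed, against 3.09% of all genes, and 2 of 8, Camk2d and Camk4, had an unadjusted p under 0.05, against 23.1%. In the averaged comparison 6 of 8 log2 changes were negative, with a median of -0.10, against 0.0074 for all genes. No gene's libraries were separate between the genotypes among the 8, against 2.05% of all genes after deprivation and 4.32% after sleep.

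Camk4 showed the lowest ratio between the genotypes. Its mean was 49.3 ± 22.6 CPM in CnB1KO_SD6, against 77.7 ± 36.3 CPM in WT_SD6, a log2 change of -0.64 (95% interval -1.34 to 0.06, edgeR adjusted p = 0.362). After sleep it was 48.6 ± 15.3 CPM in CnB1KO_S6, against 66.4 ± 24.7 CPM in WT_S6, a log2 change of -0.43 (-1.17 to 0.31, adjusted p = 0.706). Averaged over sleep states the change was -0.54 ± 0.24 (SE, edgeR adjusted p = 0.194). The 8 granule cell markers, all measured, had negative averaged log2 changes as well (median -0.84), and none of them passed (smallest edgeR adjusted p = 0.257). Their mean log2 CPM was 4.97 in CnB1KO_SD6 (2.77 to 6.92 over libraries), 5.40 in CnB1KO_S6 (3.69 to 6.73), 6.05 in WT_SD6 (3.56 to 7.54) and 6.2 in WT_S6 (5.14 to 7.15). With that value as a covariate, the averaged change of Camk4 was -0.18 (edgeR adjusted p = 0.384), and without library 13 of CnB1KO_S6 and library 8 of WT_SD6 it was -0.37 (adjusted p = 0.368).

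Camk2d had lower means in CnB1KO mice, and the difference did not pass. Its 5 CnB1KO_SD6 libraries had 219, 208, 184, 203 and 202 CPM, against 201, 220.0, 262, 237 and 187 CPM in WT_SD6. Its 5 CnB1KO_S6 libraries had 208, 200.3, 205, 203 and 192 CPM, against 216, 205, 233 and 241 CPM in WT_S6. After sleep 4 of the 5 CnB1KO_S6 libraries lay below all WT_S6 libraries, and after deprivation 1 of 5 CnB1KO_SD6 libraries lay below all WT_SD6 libraries. The averaged log2 change was -0.14 ± 0.05 (SE, edgeR adjusted p = 0.140), and it was -0.08 (adjusted p = 0.345) with the granule cell value as a covariate. Camkk2 had an averaged change of -0.19 (adjusted p = 0.314), which was -0.06 (adjusted p = 0.767) with that covariate. The averaged change of Camk1 was -0.09 (95% interval -0.18 to 0.0032, edgeR adjusted p = 0.232), that of Camk2a -0.11 (-0.26 to 0.04, adjusted p = 0.364) and that of Camk2b -0.04 (-0.16 to 0.08, adjusted p = 0.682). Camk2g and Camkk1 had positive values. For Camk2g the averaged change was 0.09 (-0.02 to 0.19, edgeR adjusted p = 0.290), and after deprivation 3 of 5 CnB1KO_SD6 libraries lay above all WT_SD6 libraries. For Camkk1 it was 0.05 (-0.03 to 0.14, edgeR adjusted p = 0.441).

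The interaction, which asks whether deprivation acted differently in the genotypes, passed for 0 of 8 genes, against 0% of all genes (edgeR), and 0 of 8 had an unadjusted p under 0.05, against 1.99% of all genes. The intervals were narrow for Camkk1 (-0.09 to 0.26 on the log2 scale) and wide for Camk4 (-1.23 to 0.81).

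**Figure D3:**
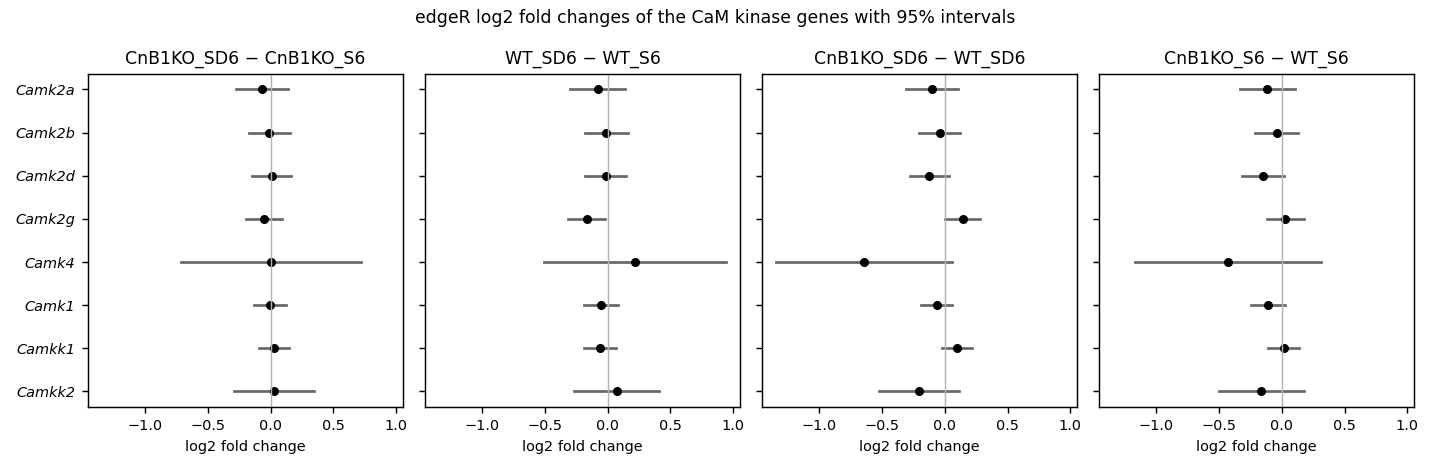
edgeR log2 fold changes (horizontal axis, points) with 95% intervals (lines) of the 8 CaM kinase genes in 4 comparisons, each named above its panel. Camk4 has the widest interval in each panel, for example -1.34 to 0.06 for CnB1KO_SD6 against WT_SD6; the points of the other 7 genes lie between -0.21 and 0.14.

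Of 27 further genes of the pathway, 26 had counts. None of the 26 passed with deprivation in CnB1KO, in WT or averaged, none passed with the genotype after deprivation or after sleep, and none passed the interaction (edgeR). With deprivation, an unadjusted p under 0.05 was reached by 1 of 26 in CnB1KO (9.69% of all genes), 3 in WT (11.6%) and 3 averaged (17.2%). With the genotype it was reached by 7 after deprivation (15.2% of all genes), 2 after sleep (10.1%) and 7 averaged (23.1%), and in the interaction by 1 (1.99%). Calm2 and Calm3, which encode calmodulin, had averaged genotype changes of 0.07 and 0.12 on the log2 scale (edgeR adjusted p = 0.607 and 0.339). With deprivation averaged over genotypes they had -0.03 and -0.02. Camk2n1 and Camk2n2, which encode CaMKII inhibitors, had averaged genotype changes of 0.09 and 0.10 (edgeR adjusted p = 0.320 and 0.247). The paralogs Camk1d, Camk1g, Pnck and Camkv had averaged genotype changes of 0.14, 0.06, -0.07 and -0.12, the smallest adjusted p being 0.156.

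Averaged over sleep states, 2 of the 26 passed with the genotype, against 3.09% of all genes, both of them genes of transcription factors that calcium signals act on. Srf averaged 42.8 ± 4.01 CPM in CnB1KO_SD6 and 43.2 ± 1.81 in CnB1KO_S6, against 37.8 ± 2.08 in WT_SD6 and 37.8 ± 2.55 in WT_S6 (SD). It was higher in CnB1KO mice by 0.19 ± 0.05 on the log2 scale (SE, edgeR adjusted p = 0.0393). Mef2c averaged 45.1 ± 7.88 CPM in CnB1KO_SD6 and 44.4 ± 7.66 in CnB1KO_S6, against 62.2 ± 11.5 in WT_SD6 and 54.9 ± 5.78 in WT_S6. It was lower in CnB1KO mice, with a log2 change of -0.37 ± 0.10 (SE, edgeR adjusted p = 0.0468). Over 29 alternatives (the run without a filter repeats the main fit) the adjusted p was 0.0209 to 0.136 for Srf and passed in 14. For Mef2c it was 0.0152 to 0.467 and passed in 9, with log2 changes of -0.42 to -0.24. Mef2c was highest in library 8 of WT_SD6, at 80.2 CPM, and lowest in library 13 of CnB1KO_S6, at 31.9 CPM. The granule cell values of these libraries were 7.54 and 3.69. Library 10 of WT_SD6, with a granule cell value of 3.56, had 50.29 CPM of Mef2c. Library 14 of CnB1KO_S6, with 6.73, had 52.55 CPM. A correlation of Mef2c with this value over the 19 libraries was not tested. With the oligodendrocyte value as a covariate, Srf had 0.23 (adjusted p = 0.136) and Mef2c -0.24 (adjusted p = 0.467). In the same comparison all 4 endothelial markers had positive changes (median 0.34 on the log2 scale), and Cldn5, Pecam1 and Flt1 passed (smallest edgeR adjusted p = 0.00873). Their mean log2 CPM was 5.78 to 6.21 in CnB1KO_SD6, 5.87 to 6.21 in CnB1KO_S6, 5.51 to 5.90 in WT_SD6 and 5.47 to 5.77 in WT_S6, and their part in the Srf and Mef2c values was not tested.

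Across the 19 libraries some of the 8 genes varied with the levels of cell type markers. Each gene's log2 CPM was set against 6 marker means, 48 relations in all, with 2-sided permutation p-values adjusted over the 48. All libraries share tissue and protocol and differ in depth, so these relations describe the libraries. Camk4 followed the granule cell markers, with Pearson's r = 0.89 (permutation p = 1e-05, the smallest that 100000 permutations can give, adjusted p = 0.00024) and Spearman's rho = 0.92 (p = 1e-05). Without the 2 libraries farthest from the median marker value r was 0.94, and after subtraction of each group's mean it was 0.89. Camk4 also followed the Purkinje cell markers (r = 0.86, rho = 0.85, adjusted permutation p = 0.00032 for r). It ran against the noradrenergic markers (r = -0.78, rho = -0.76, adjusted permutation p = 0.00072 for r). By group, the r with the noradrenergic markers was -0.82 in CnB1KO_SD6, -0.0069 in CnB1KO_S6, -0.89 in WT_SD6 and -0.94 in WT_S6.

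Camkk2 showed the same signs. Its r was 0.69 with the granule cell markers (rho = 0.77, permutation p = 0.00102, adjusted p = 0.0044), 0.78 without the 2 farthest libraries and 0.67 with the group means subtracted. With the noradrenergic markers its r was -0.78 (rho = -0.57, adjusted permutation p = 0.00267), and -0.57 without the 2 farthest libraries. By group, that r was 0.51 in CnB1KO_S6, -0.62 in CnB1KO_SD6, -0.94 in WT_SD6 and -0.93 in WT_S6. Camk2d had r = 0.70 with the granule cell markers (rho = 0.77, adjusted permutation p = 0.00365; 0.71 without the 2 farthest libraries, 0.66 within groups). By group, its r with the granule cell markers was 0.36 in CnB1KO_SD6, 0.21 in CnB1KO_S6, 0.93 in WT_SD6 and 0.85 in WT_S6. With the Purkinje cell markers it had r = 0.78 (rho = 0.77, adjusted permutation p = 0.00072). With the noradrenergic markers Camk2d had r = -0.79 (adjusted permutation p = 0.000891), and -0.58 without the 2 farthest libraries. Its rho of -0.53 there did not pass (adjusted permutation p = 0.0703). By group, the r of Camk2d with the noradrenergic markers was -0.39 in CnB1KO_SD6, 0.17 in CnB1KO_S6, -0.96 in WT_SD6 and -0.94 in WT_S6.

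Camk2g had the opposite sign, with r = -0.68 for the granule cell markers (rho = -0.66, permutation p = 0.0011, adjusted p = 0.0044). That r was -0.80 without the 2 farthest libraries and -0.81 within groups. With the noradrenergic markers Camk2g had r = 0.57 (rho = 0.64, adjusted permutation p = 0.0327 for r), and 0.33 without the 2 farthest libraries. It had positive values with the oligodendrocyte markers (r = 0.80, rho = 0.84, permutation p = 7e-05, adjusted p = 0.00072; 0.72 without the 2 farthest libraries, 0.65 within groups), although r was -0.17 among the 5 WT_SD6 libraries. Camkk1 also had a positive r with the oligodendrocyte markers (0.59, adjusted permutation p = 0.0250), but its rho of 0.50 did not pass (adjusted p = 0.0879). Camk2b followed the pan-neuronal markers, with r = 0.89 (rho = 0.92, permutation p = 1e-05, adjusted p = 0.00024; 0.90 without the 2 farthest libraries, 0.93 within groups). Camk2a and Camk1 had no relation with an adjusted p under 0.05, and their r lay between -0.27 and 0.44.

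**Figure D4:**
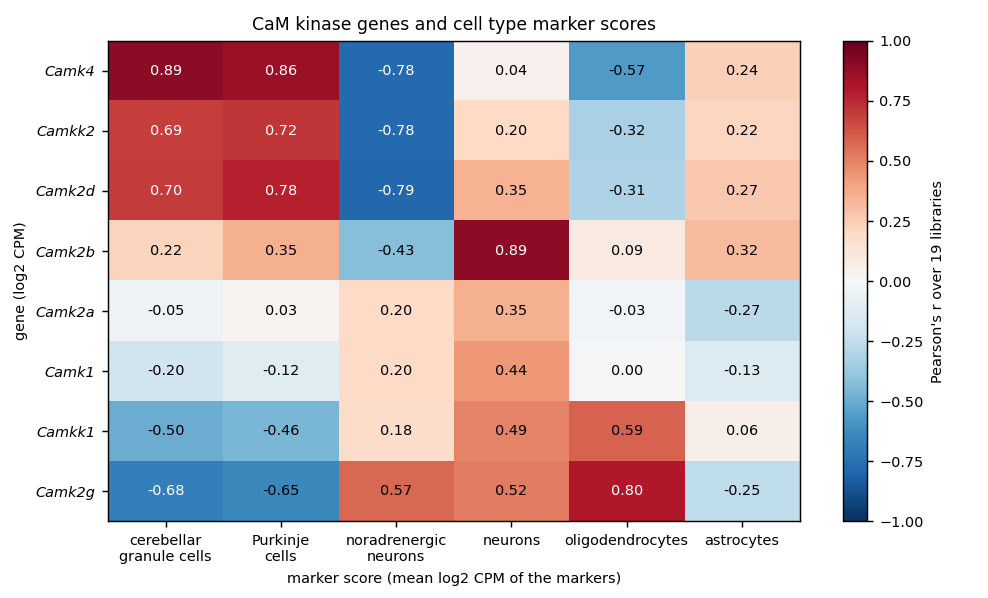
Pearson's r (colour and number) over 19 libraries between the log2 CPM of each CaM kinase gene (rows) and the mean log2 CPM of 6 marker lists (columns). Camk4, Camkk2 and Camk2d share positive values with granule and Purkinje cell markers, 0.69 to 0.89, where Camk2g has -0.68 and -0.65.

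Among the 28 pairs of the 8 genes, Camk4 and Camkk2 were most alike (r = 0.88, rho = 0.82, permutation p = 2e-05, adjusted p = 0.000187; 0.85 without the 2 farthest libraries, 0.87 within groups). Camk2d was close to both, with r = 0.84 to Camk4 and 0.84 to Camkk2 (adjusted permutation p = 0.000187 for each; rho = 0.79 and 0.77). The paralogs Camkk1 and Camkk2, whose promoter windows are given above, had r = -0.24 (rho = -0.17, permutation p = 0.329, adjusted p = 0.485). Camk2g and Camk4 had r = -0.67 (rho = -0.63, adjusted permutation p = 0.00742). Camk2g and Camkk1 had r = 0.70 (rho = 0.62, adjusted permutation p = 0.00521; 0.50 without the 2 farthest libraries). Camk2b and Camk2d had r = 0.70 (rho = 0.60, adjusted permutation p = 0.00521). The other 22 pairs did not pass by r.

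**Figure D5:**
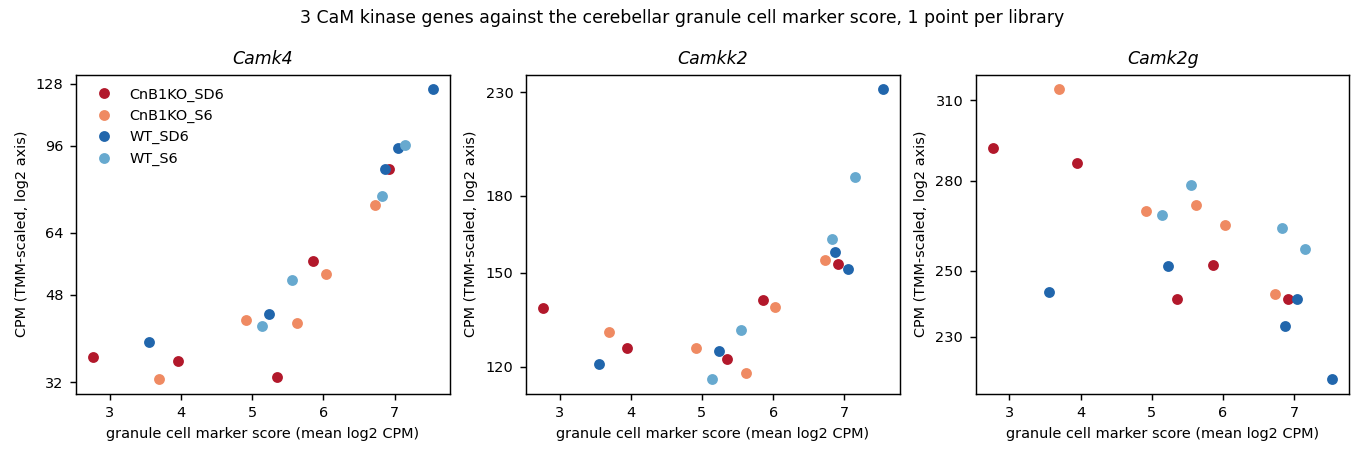
TMM-scaled CPM (vertical axes, log2 scale) of Camk4, Camkk2 and Camk2g against the mean log2 CPM of 8 cerebellar granule cell markers (horizontal axes), 1 point per library, coloured by group. Camk4 spreads between 32.5 and 125 CPM and is highest in the libraries with the highest marker values, whichever their group; Camk2g is lowest in the library with the highest marker value, at 218 CPM.

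The genes most like each member over the 19 libraries, by Pearson's r of log2 CPM among 13270 genes, are given as a description. For Camk4 they were Mmp24 (r = 0.99), Trim62 and Wscd2 (both 0.98). For Camkk2 they were Rbfox3, which encodes the neuronal marker NeuN, Kcnk3 and Rasa3 (0.93 each). With the mean of the pan-neuronal markers, Rbfox3 among them, Camkk2 had r = 0.20 (rho = 0.42, adjusted permutation p = 0.528 for r). Camk2d was nearest to Frrs1l (0.95), Garnl3 (0.94) and Prkce (0.93). Camk2b was nearest to Cplx2 (0.96), which encodes a presynaptic complexin, Pitpnm1 (0.95) and Ddx5 (0.94). Camk2g was nearest to Dctn2 (0.94), Nol6 (0.94) and Eml2 (0.93), and Camk2a to Gna11 (0.90), Rnft2 (0.89) and Adgrl3 (0.88). The nearest genes were less alike for Camk1, namely Ehmt2 (0.86), Blcap (0.86) and Smarca5 (0.83), and for Camkk1, namely Map4k2 (0.83), Aatk (0.80) and Cox6c (0.80).

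The counts of the 8 genes did not scale alike with the library total. The slope of a gene's log2 count against the log2 total of the library, which is 1 where counts follow depth, was 0.71 for Camk2g and 0.75 for Camk2b, 0.86 to 0.94 for Camkk1, Camk1 and Camk2a, 1.1 for Camk2d, 1.28 for Camkk2 and 2.02 for Camk4. With the log2 library total as a covariate, the WT deprivation change of Camk2g was -0.15 (edgeR adjusted p = 0.169) and the averaged genotype change of Camk4 was -0.48 (adjusted p = 0.273). The 2 shallowest libraries, 13 of CnB1KO_S6 and 20 of CnB1KO_SD6, also had low granule cell values, 3.69 and 2.77, and depth and marker content were not separated.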

How the data were processed

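Poly(A) RNA of dissected locus coeruleus was sequenced in 19 libraries, and groups were taken from the sample labels. The authors deposited whole-number read counts for 14443 genes and, per group, FPKM (fragments per kilobase of transcript, scaled to each library's mapped total) for every library. The tools named in the submitters' processing notes include HTSeq 2.0.4, StringTie 2.2.1 and Picard 2.18.29, with the build GRCm38. The sources used here do not name the aligner or annotation. Those counts sum to at least 381 per gene, the rule behind this choice of genes is not stated, and 19 TPM columns were not used. The FPKM tables held 62533 lines for CnB1KO_S6, 62535 for CnB1KO_SD6, 62551 for WT_SD6 and 59380 for WT_S6, and only symbols with 1 line in each were compared.

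After TMM scaling, edgeR 4.0.16 (R 4.3.3, quasi-likelihood F test, 2-sided) was run in 1 fit of the 4 group means over all 19 libraries, with no covariate. The filter filterByExpr removed no gene, so the alternative without a filter repeats this fit. Contrasts, 7 in all, were deprivation in each genotype, the genotype after deprivation and after sleep, both averages and the interaction. Calls used an adjusted p under 0.05 (Benjamini-Hochberg, over the whole table), and intervals are 95%. FPKM were tested with limma 3.58.1 on log2(FPKM + 1), for symbols of at least 1 FPKM in 4 libraries. Alternatives were DESeq2 1.42.0, limma voom, no filter, the compared groups only, depth or marker means (mean log2 CPM) as covariates, each library left out, and library 13 of CnB1KO_S6 with library 8 of WT_SD6 left out, the last chosen after seeing the data. Scripts were tested on simulated data.

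Genes were named by a rule: the 8 members, pathway genes called in any comparison or given as a family, Ppp3r1, marker genes, and the 3 genes most correlated with each member (mean log2 CPM of at least 1, no provisional symbols). Some listed genes are not reported here by name. The members, lists and tests were chosen with earlier results of these data known. Total counts were 5110285 to 6966490 in CnB1KO_SD6, 3887298 to 7128244 in CnB1KO_S6, 5606129 to 7903253 in WT_SD6 and 6260061 to 7002015 in WT_S6. Reads carry no molecular identifiers. The labels call the libraries biological replicates and give no batch, so no value within batches could be had. No libraries were identical, and pairs within a group differed by 1.38 to 19.1 times the counting noise (chi-square per degree of freedom).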

Additional observations from a re-analysis of the deposited data

Results flagged for a closer look

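The 8 genes were examined for a single library far from the rest in each of 4 groups, 32 cases, of which chance flags about 1 in 20. Camk2b was far higher in library 13 of CnB1KO_S6, at 374.5 CPM, than in the next library, at 315 CPM; library 13 is the shallowest, with 3887298 counts, and had the highest mean of the pan-neuronal markers, 8.20 on the log2 CPM scale. Camkk1 was lower in library 1 of WT_S6, at 108.9 CPM, than in the next library, at 122 CPM.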

How the results depend on the processing

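The number of the 8 genes that passed was 0 in all 7 comparisons and stayed 0 under every alternative run, including each library left out, with 1 exception: deprivation averaged over genotypes gave 1 (Camk2g) with the granule cell markers as a covariate. Called genes among all 14443 depended more on single libraries: the genotype averaged over sleep states called 447, between 76 and 1088 without 1 library and between 15 and 1076 under the other alternatives. The genotype after deprivation called 19 (7 to 220 without 1 library) and deprivation in WT called 165 (78 to 176 without 1 library). No paired analysis was possible because the deposited columns carry library numbers and no replicate numbers of the labels. Alternatives planned for members without counts were not run, since all 8 had counts. The spread of Camk4 between libraries, an SD of 0.587 in log2 CPM, sets the width of its intervals.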
